A study of Mus musculus with 20 samples.

Results

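The 10 genes described here encode chaperones and folding factors of the endoplasmic reticulum (ER) that the unfolded protein response controls: Hspa5, Hsp90b1, Sdf2l1, Dnajb9, Hyou1, Pdia4, Pdia6, Creld2, Manf and Calr. They were taken by symbol from the 55487 genes of the count table and from the matching rows of the table of TPM (a transcript level scaled to gene length and library total), and all 10 passed the filter on low counts that left 16312 genes for testing. The libraries came from liver tissue of female C57BL/6N mice aged 15 weeks, in 4 groups of 5 libraries: Plin2-null mice without food for 24 h, Plin2-null mice on chow, Plin2+/+ mice without food for 24 h, and Plin2+/+ mice on chow. PLIN2 (perilipin 2) coats cytosolic lipid droplets. The labels of 10 libraries carry a feeding state and no genotype; the study names only Plin2+/+ and Plin2-/- mice, so those 10 were taken to be Plin2-/- and are called Plin2-null. How the allele was made was not stated in the labels.

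Secreted and membrane proteins fold in the ER, and the liver makes most plasma proteins by this route. HSPA5 (BiP) is the Hsp70 of the ER; it binds unfolded chains and also holds the stress sensors IRE1, PERK and ATF6 inactive. When unfolded chains draw HSPA5 away, ATF6 fragments and spliced XBP1 switch on chaperone genes, many of which carry an ER stress response element near their start. The other members fall into a few roles: co-factors of HSPA5 (HYOU1, DNAJB9, SDF2L1 and MANF), the ER Hsp90 (HSP90B1), the lectin chaperone calreticulin (CALR), the protein disulfide isomerases PDIA4 and PDIA6, and CRELD2, a stress-induced ER protein with EGF-like repeats.

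Total counts ran from 25506471 to 65579038 per library. Plin2 itself stood at 60.4 ± 21.6 TPM in Plin2-null fasted and 15.7 ± 5.21 TPM in Plin2-null fed livers, against 1019 ± 242 TPM in Plin2+/+ fasted and 197 ± 51.2 TPM in Plin2+/+ fed livers (SD, n = 5 each), so its level followed the labels. The summed TPM of 10 hepatocyte markers was 97338 to 145085 in Plin2-null fasted and 127238 to 158930 in Plin2-null fed livers. In Plin2+/+ mice it was 135787 to 168957 in fasted and 138435 to 192274 in fed livers. Alb alone ran from 62447 to 139889 TPM over the libraries, so it carries much of the sum. The labels name no litter, batch or day, and the p-values reflect only how far these libraries differ among themselves. The preparation was strand-specific, but the strand setting of the counting is not stated, so reads of genes overlapping on opposite strands may be shared. This concerns Hsp90b1, whose span holds the opposite-strand pseudogene 1810014B01Rik, as well as Pdia6 and Manf, which overlap opposite-strand protein-coding neighbours. Manf also overlaps Rbm15b, and Hsp90b1 overlaps Gm15344, on the same strand, where the setting makes no difference.

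The promoters are shown first, because the letters that the response reads are common to several members. RefSeq windows (build GRCm38.p6, 250 bases before to 50 after the start, 300 in all) matched 8 of the 10 genes; Hyou1 and Manf were not used here. The complete element, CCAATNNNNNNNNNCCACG on either strand, was found in 5 of the 8 windows (62.5%), against 39 of 32851 windows of all genes (0.119%). The element was first defined on promoters of this kind, so its presence describes the genes and is no separate evidence. In the lines that follow each match is written 5′ to 3′ from its CCAAT part, which is in capitals together with the CCACG part; the bases between are in lower case.
Hspa5, chr2:34772025-34772043, plus strand: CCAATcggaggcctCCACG
Hsp90b1, distal match, chr10:86705638-86705656, minus strand: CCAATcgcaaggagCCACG
Hsp90b1, proximal match, chr10:86705533-86705551, plus strand: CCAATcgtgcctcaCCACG
Calr, chr8:84847075-84847093, plus strand: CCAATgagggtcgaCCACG
Pdia6, chr12:17266491-17266509, plus strand: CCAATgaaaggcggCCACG
Creld2, chr15:88819520-88819538, minus strand: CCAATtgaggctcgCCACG
Pdia4, last base differing, chr6:47813602-47813620, plus strand: CCAATcacgggctgCCACt

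The spacers share no fixed sequence, and the matches lie on either strand of the gene, from 212 to 47 bases before the start. Pdia4 matched once the last base was dropped (CCAATNNNNNNNNNCCAC), a form found in 6 of the 8 windows (75%) and in 120 of all windows (0.365%). Hspa5 holds a further near-match upstream of its complete element. Distances here count from the RefSeq start. The GENCODE span given for Hspa5 below begins further upstream, at chr2:34771970, so both matches lie inside that span. The 80 bases from 110 to 31 before its start, chr2:34771980-34772059 on the plus strand, are printed with both CCAAT boxes and the parts that follow them at the spacing of the element in capitals: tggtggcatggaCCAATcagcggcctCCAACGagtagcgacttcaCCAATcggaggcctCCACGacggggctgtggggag. The upstream copy has CCAACG in place of CCACG, and that form with the same spacing was in 1 of the 32851 windows, this one. The form was read from this window before the search, so its match here was fixed in advance. Sdf2l1 and Dnajb9 had both parts in their windows but not in this arrangement; all 8 windows held CCAAT, against 37.4% of all windows, and all 8 held CCACG, against 32.8%. The ER stress response element II, TGACGTGG (the unfolded protein response element) and TGATGNAAT (an amino acid response element) were in none of the 8 windows, against 0.0365%, 0.676% and 0.965% of all windows; a window without these letters says nothing of the factor itself.

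**Figure D1:**
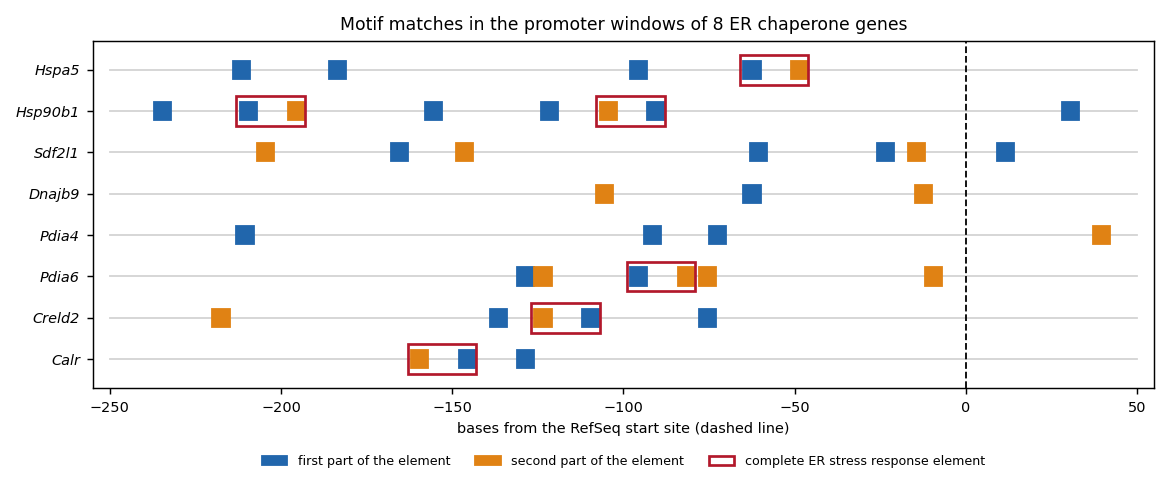
Matches in the promoter windows of 8 genes, on the x axis in bases from the RefSeq start site (dashed line). Blue and orange blocks are the first and second parts of the ER stress response element on either strand, and red frames are the complete element, which 5 genes carry, Hsp90b1 with a pair of frames; Sdf2l1, Dnajb9 and Pdia4 have blocks and no frame.

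Most ER chaperone transcripts were lower after fasting in both genotypes. The summed TPM of the 10 genes was 1123 ± 216 in Plin2-null fasted and 2393 ± 621 in Plin2-null fed livers, and 1154 ± 80.9 in Plin2+/+ fasted and 2694 ± 695 in Plin2+/+ fed livers (SD, n = 5 each), or 0.112%, 0.239%, 0.115% and 0.269% of all TPM. Calr, Hsp90b1 and Hspa5 made up between 67.5% and 80.5% of this sum in every library. In edgeR's quasi-likelihood test, with a call at a p under 0.05 after Benjamini-Hochberg adjustment over all genes tested, 6 of the 10 genes fell in Plin2-null livers and none rose, where 18.1% of all tested genes fell and 18.0% rose. In Plin2+/+ livers 9 of the 10 fell and none rose, where 21.7% of all tested genes fell and 20.9% rose. The median log2 fold change of the 10 was -1.01 in Plin2-null and -1.57 in Plin2+/+ mice, beside -0.01 over all genes in each. In bulk tissue, fewer cells of a type and less RNA per cell cannot be told apart.

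**Figure D2:**
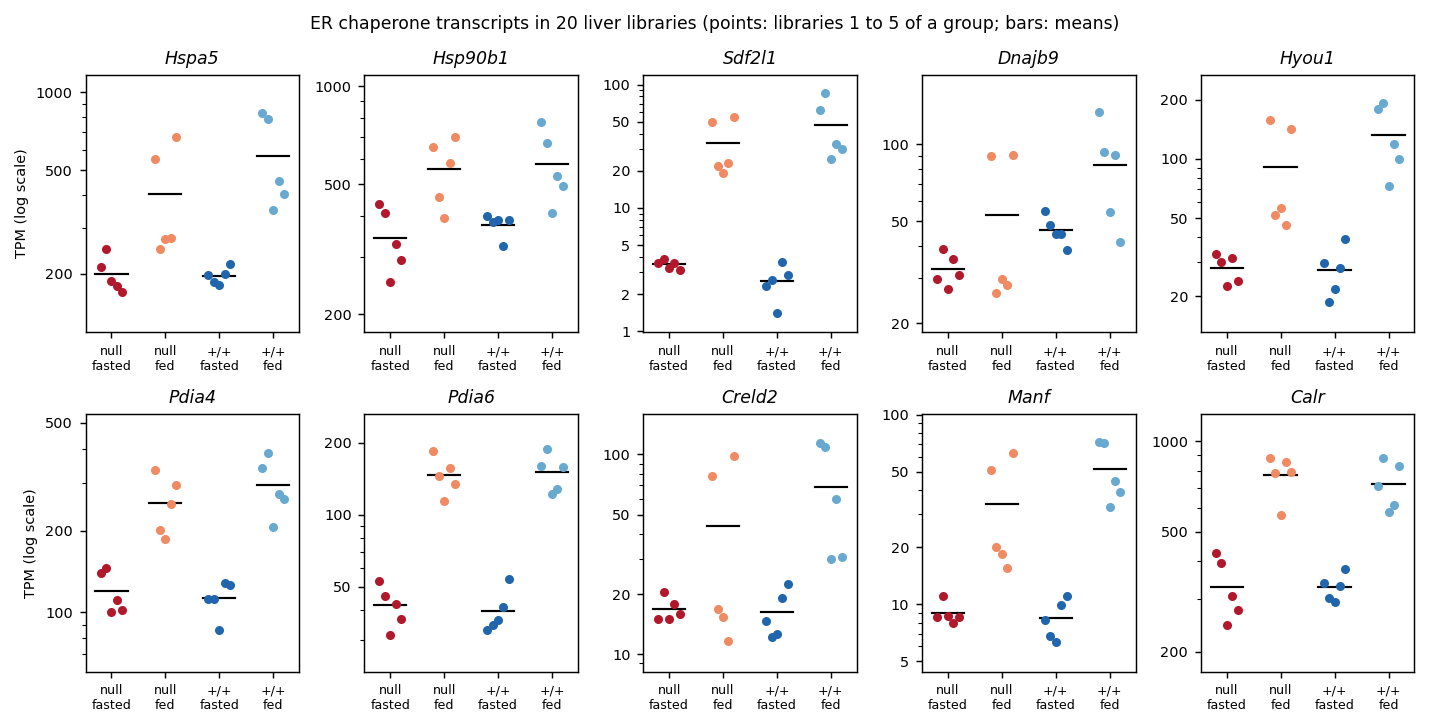
TPM of each gene (y axis, log scale) in the 20 libraries, by group on the x axis; points are libraries 1 to 5 from left to right and black bars are group means. Sdf2l1 shows the widest gap, with fasted libraries at 1.4 to 3.88 and fed libraries at 19.3 to 86.1 TPM, while Dnajb9 and Creld2 have Plin2-null fed libraries at the fasted level.

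Hspa5 (ENSMUSG00000026864, chr2:34771970-34777547, plus strand, GRCm38, protein-coding, as are the other 9) is the central chaperone of the set. In libraries 1 to 5 it stood at 213, 250, 188, 179 and 170 TPM in Plin2-null fasted livers, against 555, 248, 273, 275 and 672 TPM in Plin2-null fed livers. In Plin2+/+ mice it stood at 198, 186, 181, 199 and 219 TPM in fasted livers, against 834, 789, 352, 454 and 407 TPM in fed livers. By TPM the fasted and fed libraries did not overlap in Plin2+/+ mice. In Plin2-null mice fasted library 2 lay just above fed library 2 by TPM, and fed libraries 1 and 5 were far above the other 3 libraries. The overlap was wider on counts relative to the TMM-adjusted library size (CPM). There Plin2-null fasted libraries 2 and 3 (477 and 484 CPM) lay above Plin2-null fed libraries 2, 3 and 4 (355, 426 and 405 CPM). On TMM-scaled counts Hspa5 fell in Plin2+/+ livers (log2 fold change -1.36 ± 0.29 SE, edgeR adjusted p = 0.000838), and in Plin2-null livers its change of -0.70 ± 0.29 SE had an adjusted p of 0.0622. That second value passed the threshold in other fits, with an adjusted p of 0.032 in DESeq2 and of 0.00985 with scaling by library size alone.

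Sdf2l1 (ENSMUSG00000022769, chr16:17130138-17132383, minus strand), which acts with the J-domain protein DNAJB11 in the HSPA5 cycle, changed most of the 10. It stood at 3.61, 3.88, 3.28, 3.58 and 3.16 TPM in Plin2-null fasted livers, against 50, 21.9, 19.3, 23.3 and 54.6 TPM in Plin2-null fed livers. Among Plin2+/+ mice the values were 2.32, 2.62, 1.4, 3.62 and 2.87 TPM in fasted livers, against 61.9, 86.1, 24.7, 32.8 and 30.3 TPM in fed livers. Every fasted library lay below every fed library by a wide margin in both genotypes. The fall was 7.87-fold in Plin2-null livers (log2 -2.98 ± 0.39 SE, edgeR adjusted p = 7.04e-06) and 16.5-fold in Plin2+/+ livers (log2 -4.04 ± 0.41 SE, adjusted p = 2.29e-07). The fasted levels rest on 24 to 76 counts per library.

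Hyou1 (ENSMUSG00000032115, chr9:44379490-44392369, plus strand) encodes the large ER Hsp70 that exchanges the nucleotide of HSPA5. Its level was 32.7, 29.7, 22.5, 31.3 and 23.8 TPM in Plin2-null fasted livers, against 158, 52.0, 56.5, 46.2 and 142 TPM in Plin2-null fed livers. Levels in Plin2+/+ mice were 29.5, 18.7, 21.7, 27.8 and 38.9 TPM in fasted livers, against 179, 192, 72.6, 119 and 100 TPM in fed livers. The groups were apart in both genotypes, and the same fed libraries that were high for Hspa5 were high here. Hyou1 fell by 1.41 ± 0.33 on the log2 scale in Plin2-null livers (SE, edgeR adjusted p = 0.0026) and by 2.13 ± 0.34 in Plin2+/+ livers (SE, adjusted p = 5.6e-05).

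Manf (ENSMUSG00000032575, chr9:106838312-106891979, minus strand) encodes a small ER protein that binds HSPA5 and can be secreted. It was measured at 8.53, 11.0, 8.71, 7.99 and 8.6 TPM in Plin2-null fasted livers, against 51.2, 20.0, 18.4, 15.6 and 62.8 TPM in Plin2-null fed livers. Plin2+/+ livers had 8.24, 6.85, 6.31, 9.92 and 11.0 TPM when fasted, against 72.1, 70.9, 32.7, 44.5 and 39.1 TPM when fed. No fasted library reached a fed library of its genotype. The fall was 3.02-fold in Plin2-null livers (log2 -1.59 ± 0.36 SE, edgeR adjusted p = 0.00204) and 5.5-fold in Plin2+/+ livers (log2 -2.46 ± 0.37 SE, adjusted p = 3.5e-05).

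Dnajb9 (ENSMUSG00000014905, chr12:44205559-44210326, minus strand), a J-domain co-factor of HSPA5 that also restrains IRE1, passed the test in neither genotype. It ranged from 27.3 to 39.0 TPM in Plin2-null fasted livers, against 89.7, 26.3, 29.8, 28.2 and 91.0 TPM in Plin2-null fed livers. The range in Plin2+/+ mice was 38.7 to 55.1 TPM in fasted livers, against 134, 93.3, 54.5, 90.9 and 41.6 TPM in fed livers. Fed and fasted libraries overlapped in both genotypes, since 3 Plin2-null fed and 2 Plin2+/+ fed libraries lay within or below the fasted range. The log2 fold change was -0.42 ± 0.36 SE in Plin2-null livers (edgeR adjusted p = 0.392, 95% interval -1.17 to 0.34) and -0.66 ± 0.36 SE in Plin2+/+ livers (adjusted p = 0.153, interval -1.41 to 0.10).

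Calr (ENSMUSG00000003814, chr8:84841850-84846934, minus strand), a calcium-binding lectin chaperone, had the highest mean TPM of the 10 in fed livers of either genotype. In Plin2+/+ fed library 1, however, Calr lay below Hspa5 (834 TPM) and Hsp90b1 (776 TPM). It stood at 425, 394, 245, 306 and 274 TPM in Plin2-null fasted livers, against 882, 783, 570, 856 and 789 TPM in Plin2-null fed livers. Among Plin2+/+ mice Calr stood at 337, 301, 293, 331 and 376 TPM in fasted livers, against 711, 880, 584, 616 and 826 TPM in fed livers. The groups did not overlap, and the fed libraries that were high for Hspa5 did not stand apart here. Calr fell by 0.94 ± 0.15 on the log2 scale in Plin2-null livers (SE, edgeR adjusted p = 6.21e-05) and by 0.99 ± 0.15 in Plin2+/+ livers (SE, adjusted p = 2.57e-05).

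Hsp90b1 (ENSMUSG00000020048, chr10:86690209-86705509, minus strand), the Hsp90 of the ER, changed least of those that passed the test anywhere. Its mean level was 343 ± 77.0 TPM in Plin2-null fasted and 556 ± 129 TPM in Plin2-null fed livers, and 376 ± 30.3 TPM in Plin2+/+ fasted and 576 ± 146 TPM in Plin2+/+ fed livers (SD, n = 5 each). On scaled counts its log2 fold change on fasting was -0.40 ± 0.18 SE in Plin2-null livers, with an edgeR adjusted p of 0.0794, and -0.44 ± 0.18 SE in Plin2+/+ livers, with an adjusted p of 0.0497 at the edge of the threshold. The Plin2+/+ call was lost with limma voom (0.0549), with RLE size factors (0.0523), without a filter (0.054) and on leaving out any of 9 single libraries, where the adjusted p reached 0.142. The Plin2-null value passed with scaling by library size alone (0.00653) and in the fits on TPM (0.00712).

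The disulfide isomerases fell in both genotypes. Pdia6 (ENSMUSG00000020571, chr12:17266545-17284770, plus strand) stood at 52.7, 45.8, 31.5, 42.5 and 36.6 TPM in Plin2-null fasted livers, against 185, 146, 114, 157 and 135 TPM in Plin2-null fed livers. Among Plin2+/+ mice Pdia6 stood at 32.9, 34.5, 36.2, 41.2 and 53.8 TPM in fasted livers, against 160, 189, 122, 128 and 158 TPM in fed livers. Every fed library lay above every fasted library of its genotype, and the change of -1.52 ± 0.16 in Plin2-null and -1.77 ± 0.16 in Plin2+/+ livers (log2, SE; edgeR adjusted p = 1.76e-07 and 1.78e-08) had the smallest adjusted p of the set in each genotype. Pdia4 (ENSMUSG00000025823, chr6:47796141-47813430, minus strand) averaged 120 ± 21.5 TPM in Plin2-null fasted and 253 ± 62.6 TPM in Plin2-null fed livers, and 113 ± 16.6 TPM in Plin2+/+ fasted and 293 ± 69.9 TPM in Plin2+/+ fed livers (SD, n = 5 each). It fell by 0.78 ± 0.19 in Plin2-null livers (log2, SE, adjusted p = 0.0027) and by 1.21 ± 0.19 in Plin2+/+ livers (adjusted p = 2.65e-05), with no overlap between fasted and fed libraries.

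Creld2 (ENSMUSG00000023272, chr15:88819646-88826683, plus strand) varied most among libraries of one group. It was at 15.0, 20.4, 15.0, 17.9 and 15.9 TPM in Plin2-null fasted livers, against 77.7, 16.8, 15.3, 11.7 and 97.7 TPM in Plin2-null fed livers. Among Plin2+/+ mice Creld2 was at 14.7, 12.2, 12.7, 19.2 and 22.6 TPM in fasted livers, against 114, 109, 30.0, 59.7 and 30.7 TPM in fed livers. Of the Plin2-null fed libraries 3 were within or below the fasted range and the other two far above it, an 8.37-fold range within the group, while in Plin2+/+ mice the groups were apart. Creld2 fell in Plin2+/+ livers (log2 -1.91 ± 0.56 SE, edgeR adjusted p = 0.0106) and had a change of -1.09 ± 0.55 SE with an adjusted p of 0.133 in Plin2-null livers.

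Across the members, fasted and fed CPM values (counts relative to the TMM-adjusted library size) did not overlap, with fasted lower, for 6 genes in Plin2-null and 8 in Plin2+/+ mice, beside 11.8% and 13.5% of all tested genes. The order of the levels differed little between groups. Calr, Hsp90b1 and Hspa5 led in every group by their means. Calr was first in fed livers (776 ± 123 TPM in Plin2-null and 723 ± 129 TPM in Plin2+/+, SD, n = 5 each) and Hsp90b1 in fasted livers. The libraries of Calr and Hsp90b1 overlapped in every group. Pdia4 came next in each group, and Sdf2l1 was last in all groups but Plin2-null fed, where it averaged 33.8 ± 17.0 TPM and Manf 33.6 ± 21.8 TPM (SD, n = 5 each).

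**Figure D3:**
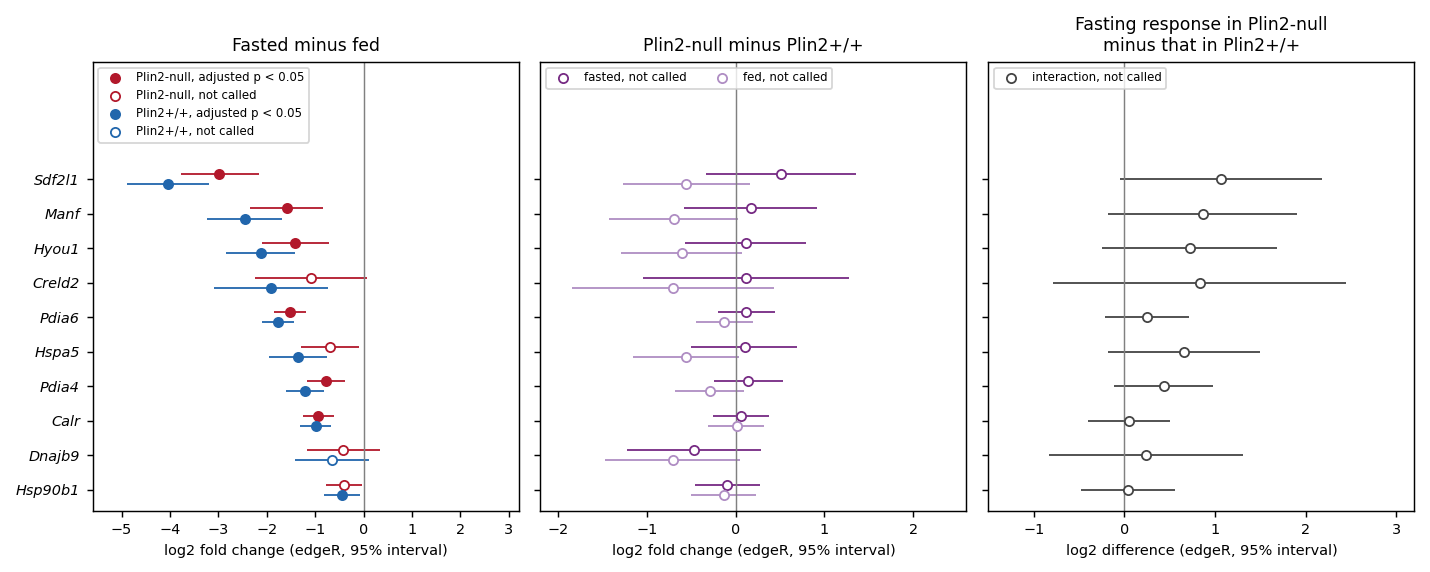
Log2 fold changes from edgeR (x axis) with 95% intervals for the 10 genes (rows), for fasted minus fed livers in each genotype, Plin2-null minus Plin2+/+ livers in each feeding state, and the difference between the fasting responses. Filled points have an adjusted p under 0.05; they are 6 for Plin2-null and 9 for Plin2+/+ in the left panel, and there are none in the middle and right panels.

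Loss of Plin2 changed none of the 10 genes detectably. In fasted livers the log2 difference between Plin2-null and Plin2+/+ ran from -0.47 (Dnajb9) to 0.51 (Sdf2l1), with edgeR adjusted p-values from 0.436 to 0.912 and no unadjusted p under 0.05, where 3.24% of all genes were called and 3962 genes had an unadjusted p under 0.05. That share was not stable: the 528 called genes became 15 without Plin2-null fasted library 5, 13 without Plin2+/+ fasted library 2 and 1794 without Plin2+/+ fasted library 5, and none of the 10 was called in any of these fits. The 95% intervals of the 10 genes reached from -1.23 (Dnajb9) to 1.36 (Sdf2l1) and were narrower for Calr, at -0.26 to 0.37, and Pdia6, at -0.20 to 0.44. Dnajb9 had the lowest unadjusted p, at 0.211; it ranged from 27.3 to 39.0 TPM in Plin2-null fasted livers and from 38.7 to 55.1 TPM in Plin2+/+ fasted livers.

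In fed livers 9 of the 10 genes had a negative difference between Plin2-null and Plin2+/+, from -0.71 (Dnajb9 and Creld2) to 0.01 (Calr), and none was called, where 0.0184% of all genes were and 694 genes had an unadjusted p under 0.05. The lowest unadjusted p-values were 0.0606 for Manf (log2 -0.70 ± 0.35 SE), 0.0641 for Hspa5 (-0.56 ± 0.29) and 0.0642 for Dnajb9 (-0.71 ± 0.36), and every edgeR adjusted p was 1. DESeq2 and voom called none either in fed or in fasted livers. Fed values of the 2 genotypes overlapped for all 10 genes.

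The fitted response to fasting was smaller in size in Plin2-null than in Plin2+/+ livers for all 10 genes, by 0.04 (Hsp90b1) to 1.07 (Sdf2l1) on the log2 scale, but the difference between the responses passed the test for none of them (edgeR adjusted p = 0.378 to 0.959), nor for any gene of the 16312 (0% called); 2250 genes had an unadjusted p under 0.05, and none of the 10 was among them. DESeq2 called 62 of all genes for this difference and limma voom 2, with none of the 10 among them. Over the alternative fits the difference ran from -0.12 to 0.14 for Calr and from -0.11 to 0.18 for Hsp90b1, so their sign changed. It stayed positive for the other genes. The 10 signs of the main fit are not separate observations, since the genes moved together between libraries. The count of 6 called genes in Plin2-null and 9 in Plin2+/+ mice therefore does not show that the genotypes differ. The interval of the difference was -0.05 to 2.18 for Sdf2l1, -0.18 to 1.5 for Hspa5 and -0.40 to 0.50 for Calr.

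The chaperones varied together among fed animals. The coefficient of variation of TPM had a median over the 10 genes of 16.2% in Plin2-null fasted, 49.2% in Plin2-null fed, 18.0% in Plin2+/+ fasted and 37.1% in Plin2+/+ fed livers. On the CPM scale the medians were 22.0%, 50.6%, 17.8% and 34.9% in the same groups, beside 12.6%, 13.4%, 15.7% and 12.3% over 9188 genes with a mean of at least 5 CPM. All 10 members were above the all-gene median in Plin2-null fasted, Plin2-null fed and Plin2+/+ fed livers, and 7 of 10 in Plin2+/+ fasted livers. Plin2-null fed libraries 1 and 5 were among the top 2 of their group for 10 and 8 of the 10 genes, and Plin2+/+ fed libraries 1 and 2 for 9 and 10 of them. No label sets these 4 libraries apart from the rest of their groups.

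**Figure D4:**
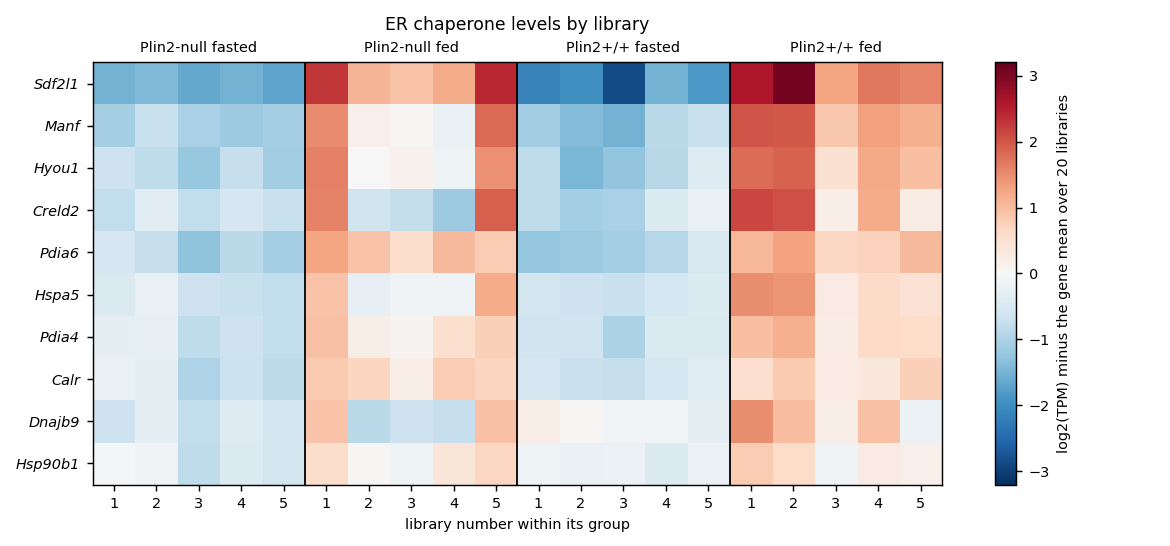
Level of each gene (rows) in each library (columns, in 4 groups of 5), coloured by log2(TPM) minus the mean of that gene over the 20 libraries; red is above and blue below the mean. Fasted libraries are blue for nearly all genes, and among fed libraries the columns of Plin2-null 1 and 5 and Plin2+/+ 1 and 2 are the reddest, except in the rows of Calr and Pdia6.

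Leaving out any one of these 4 libraries left the count of called genes at 6 in Plin2-null mice. The count in Plin2+/+ mice stayed at 9 without Plin2-null fed library 1 or 5 and was 8 without Plin2+/+ fed library 1 or 2, where Hsp90b1 was lost (adjusted p = 0.142 and 0.126). The Hspa5 change in Plin2-null livers was -0.55 without fed library 1 (adjusted p = 0.161) and -0.44 without fed library 5 (0.222). For Creld2 in Plin2-null livers the values were -0.76 (0.314) and -0.56 (0.436). Sdf2l1 was at -2.78 and -2.74 without the same libraries, and Manf at -1.38 and -1.24, each with an adjusted p under the threshold.

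After each group's mean was taken away, the Pearson correlation of log2 CPM between members had a median of 0.75 over the 45 pairs and 20 libraries, 0.84 over the 10 fed and 0.64 over the 10 fasted libraries. These are descriptions: the values of a pair share the library and its scaling. Over the 20 libraries Hspa5 followed the mean of the other 9 most closely (r = 0.95), and Pdia6 (0.62) and Calr (0.61) least. The order differed within feeding states: over the 10 fasted libraries Pdia4 was highest (0.95), Dnajb9 lowest (0.39) and Calr at 0.87, and over the 10 fed libraries Sdf2l1 was highest (0.97) and Calr lowest (0.55).

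Outside the set, the genes whose log2 CPM over the 20 libraries was most like the mean standardised level of the 10 were mostly on the ER lists described in the next paragraphs, 7 of 10. Among 8805 genes considered, with a median r of -0.10, the highest were Slc35b1 (r = 0.97), which exchanges ATP for ADP across the ER membrane, Dnajb11 (0.96), a J-domain partner of HSPA5, Osbp (0.96), an oxysterol-binding lipid transfer protein at ER contacts, and Sec23b (0.96), a coat subunit of ER export vesicles. Ero1lb (0.95) is an ER oxidase that recharges disulfide isomerases, Ssr3 (0.95) a subunit of the translocon-associated complex, Magt1 (0.94) a subunit of oligosaccharyltransferase, Spcs2 (0.94) of the signal peptidase, Ufl1 (0.94) the ligase that attaches UFM1, and Sel1l (0.94) a scaffold of ER-associated degradation. All 10 fell on fasting in both genotypes: Slc35b1 averaged 15.6 CPM in Plin2-null fasted and 28.7 CPM in Plin2-null fed livers, and 14.7 CPM in Plin2+/+ fasted and 36.8 CPM in Plin2+/+ fed livers. The choice of these genes uses the fed and fasted difference. With group means removed, r was 0.76 to 0.92 for the same genes. The genes closest over the fed libraries alone, with group means removed, were mostly on none of the ER lists.

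The sensors and factors above the chaperones included genes that fell and genes that rose on fasting. The shares of all tested genes to set beside the list counts here and in the next paragraphs are 18.1% falling and 18.0% rising in Plin2-null and 21.7% falling and 20.9% rising in Plin2+/+ livers. Of 13 sensors, activating proteases and transcription factors, 4 fell and 3 rose in Plin2-null and 7 fell and 3 rose in Plin2+/+ livers; the rises were near the all-gene share in both. Ern1, the gene of IRE1, fell by 1.07 ± 0.11 in Plin2-null and by 0.61 ± 0.11 in Plin2+/+ livers (log2, SE), and Xbp1, whose transcript IRE1 splices, fell by 0.69 ± 0.11 and 0.60 ± 0.11. Eif2ak3, the gene of PERK, fell by 0.54 ± 0.17 in Plin2-null and 0.86 ± 0.17 in Plin2+/+ livers. Atf6 was not called in either (0.13 and 0.20). Creb3l3, a liver factor induced on fasting and cleaved like ATF6, rose by 1.2 ± 0.18 and 0.81 ± 0.18, and Creb3l2 fell by 1.2 ± 0.19 and 1.32 ± 0.19. Of these 13, Ern1 (log2 -0.46, edgeR adjusted p = 0.0331) and Atf6 (-0.36, 0.0334) were called lower in Plin2-null than in Plin2+/+ fasted livers. In that comparison 3.24% of all tested genes were called in either direction. None of the 13 was called between fed livers. Both differences were negative in all 31 alternative fits, which draw on the same libraries, but each was called in only 20 of them. Without Plin2+/+ fasted libraries 1 and 2 together the edgeR adjusted p-values were 0.243 (Ern1) and 0.273 (Atf6). Both calls were lost without Plin2+/+ fasted library 1, 2 or 3 or Plin2-null fasted library 3 or 5, and that of Ern1 also without Plin2-null fasted library 1, with adjusted p-values up to 0.107.

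Among other folding factors of the ER lumen, 4 of 10 further co-chaperones fell in Plin2-null and 5 of 10 in Plin2+/+ livers, and none rose. Dnajb11 fell by 0.70 ± 0.18 and 0.90 ± 0.18 (log2, SE), and the collagen chaperone gene Serpinh1 by 1.04 ± 0.15 and 1.41 ± 0.15. Of 18 further disulfide exchange genes, 8 fell and 3 rose in Plin2-null and 10 fell and none rose in Plin2+/+ livers. Pdia3, which works with calnexin and calreticulin, fell by 0.89 ± 0.16 and 0.87 ± 0.16. P4hb, the best-known isomerase of the family, fell in Plin2+/+ livers (-0.64 ± 0.10) and was not called in Plin2-null livers (-0.14 ± 0.10). Of 8 genes of the calnexin cycle and glycan trimming, 3 fell in Plin2-null and 4 in Plin2+/+ livers, among them Canx (calnexin, -0.67 ± 0.12 and -0.64 ± 0.12) and Uggt1, the glucosyltransferase that returns misfolded glycoproteins to the cycle (-0.68 ± 0.12 and -0.66 ± 0.12).

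The entry and glycosylation machinery showed more falls than rises. Of 20 genes of translocation and signal peptide cleavage, 8 fell and 2 rose in Plin2-null and 12 fell and 1 rose in Plin2+/+ livers, with Spcs3, a signal peptidase subunit, at -0.91 ± 0.11 and -1.20 ± 0.11 (log2, SE) and Sec61g, a channel subunit, at -0.97 ± 0.14 and -1.36 ± 0.15. Of 10 oligosaccharyltransferase genes, 7 fell and 1 rose in Plin2-null and 8 fell and 1 rose in Plin2+/+ livers, with Ddost at -0.87 ± 0.12 and -1.28 ± 0.12 and Ostc at -0.94 ± 0.15 and -1.77 ± 0.15. The median log2 fold change of the oligosaccharyltransferase genes was -0.49 in Plin2-null and -0.80 in Plin2+/+ livers.

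Of 19 genes of ER-associated degradation, 6 fell and 3 rose in Plin2-null and 8 fell and 2 rose in Plin2+/+ livers, with rises no more frequent than among all genes. Derl3, a derlin of the degradation channel, fell by 2.91 ± 0.82 and 3.89 ± 0.86 (log2, SE), but from a low level. It averaged 0.259 ± 0.201 TPM in Plin2-null fasted and 2.37 ± 2 TPM in Plin2-null fed livers (SD). In Plin2+/+ mice it averaged 0.197 ± 0.215 TPM in fasted and 3.06 ± 3.31 TPM in fed livers (SD). Edem1, a mannosidase-like lectin, fell by 1.37 ± 0.15 and 1.42 ± 0.15. Vcp, the ATPase that extracts proteins, rose by 0.47 ± 0.12 and 0.50 ± 0.12. Of 18 genes of vesicle export and KDEL receptors, 1 fell and 8 rose in Plin2-null and 4 fell and 6 rose in Plin2+/+ livers. The paralogous coat genes went opposite ways: Sec23b fell by 0.82 ± 0.20 and 1.39 ± 0.20, and Sec23a rose by 1.00 ± 0.10 and 1.10 ± 0.10.

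Chaperones outside the ER moved the other way. Of 19 cytosolic chaperone genes tested, 12 rose in Plin2-null and 13 in Plin2+/+ livers, and none fell, with list medians of 0.62 and 0.74. Hspa8, the constitutive cytosolic Hsp70, rose by 1.26 ± 0.30 and 1.35 ± 0.30 (log2, SE), and Tcp1, a subunit of the chaperonin that folds actin and tubulin, by 1.09 ± 0.11 and 1.18 ± 0.11. Of 10 mitochondrial chaperone and protease genes, 8 rose and none fell in each genotype, with a median of 0.80 in both; Hspd1, the mitochondrial Hsp60, rose by 0.82 ± 0.11 and 0.94 ± 0.11. With scaling by library size alone, 9 and 13 of the cytosolic and 8 and 7 of the mitochondrial genes rose in Plin2-null and Plin2+/+ livers. None fell, and in that fit 1376 and 1854 of all 16312 genes rose. With limma on log2(TPM + 1), 7 and 12 of the 19 cytosolic and 5 and 7 of the 10 mitochondrial genes rose. None fell there, and 972 and 1538 of all 16067 rows tested rose. Of 12 targets of PERK and the integrated stress response that were tested, 5 rose and none fell in Plin2-null and 4 rose and 1 fell in Plin2+/+ livers. Trib3, a pseudokinase gene downstream of ATF4, rose by 2.13 ± 0.43 and 1.53 ± 0.42, and Sesn2 by 1.37 ± 0.23 and 1.36 ± 0.23. Trib3 stood low in fed livers, at 1.45 ± 0.559 TPM in Plin2-null and 1.89 ± 1.53 TPM in Plin2+/+ mice (SD). Atf4 itself averaged 37.9 ± 9.73 TPM in Plin2-null fasted and 52.9 ± 8.98 TPM in Plin2-null fed livers (SD). In Plin2+/+ mice Atf4 averaged 34.3 ± 4.34 TPM in fasted and 52.1 ± 10.3 TPM in fed livers (SD). Ddit3 averaged 3.51 TPM (fasted) and 5.81 TPM (fed) in Plin2-null, and 3.54 and 7.29 TPM in Plin2+/+ livers.

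The other genes with the complete promoter element were examined next. The 39 windows belong to 37 genes, of which 32 are not members, and 16 of those were tested. In Plin2-null livers 5 fell and 1 rose, and in Plin2+/+ livers 6 fell and 2 rose, or 31.2% and 37.5% falling, beside 18.1% and 21.7% of all tested genes. Derl3, Canx and Pan2, which encodes a poly(A) nuclease subunit, fell in both genotypes. In Plin2-null livers Zfp57 and 1700122E12Rik fell as well, and in Plin2+/+ livers Alg12, a mannosyltransferase of the ER, and Spats2l. Syvn1, the ubiquitin ligase of ER-associated degradation, fell in Plin2+/+ livers (log2 -1.56 ± 0.38 SE, edgeR adjusted p = 0.00318) with a value of -0.78 ± 0.38 (0.117) in Plin2-null livers. Acacb, an acetyl-CoA carboxylase gene, carries the element and rose in both (0.84 ± 0.28 and 0.95 ± 0.28), and Acnat2 rose in Plin2+/+ livers. Dnajc3, on the list of further ER co-chaperones, also carries the element and was called in neither genotype. Its log2 fold changes were -0.23 ± 0.15 in Plin2-null and -0.13 ± 0.15 in Plin2+/+ livers (SE, edgeR adjusted p = 0.258 and 0.521). Sdf2l1, with the largest fall of the members, had no complete element in its window.

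Markers of other cell types were read beside these results, since cells rich in ER also express the 10 genes. The summed TPM of 12 pancreatic acinar markers was 3.57 to 6.04 in Plin2-null fasted and 18.5 to 36 in Plin2-null fed livers, and 2.43 to 4.47 in Plin2+/+ fasted and 9.52 to 23.0 in Plin2+/+ fed livers. Nearly all of it was Cela1, which reached 35.2 TPM; Cela3b, Cpb1, Amy2a5 and Zg16 were at 0 in all 20 libraries, and Prss2, Ctrb1, Cpa1, Pnlip and Clps had at most 2 counts in any library. Plasma and B cell markers summed to 11.4 to 27.6 TPM in Plin2-null fasted and 21.7 to 27.9 TPM in Plin2-null fed livers, and to 11.0 to 19.2 TPM in Plin2+/+ fasted and 19.8 to 52.7 TPM in Plin2+/+ fed livers; none of the 8 tested fell in Plin2-null and 5 fell in Plin2+/+ livers.

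Kupffer cell and macrophage markers summed to 379 to 644 TPM in Plin2-null fasted and 495 to 1261 TPM in Plin2-null fed livers, and to 314 to 457 TPM in Plin2+/+ fasted and 590 to 698 TPM in Plin2+/+ fed livers, and 4 and 7 of 10 fell. Cholangiocyte markers summed to 13.6 to 32.1 TPM in Plin2-null fasted and 42.7 to 77.2 TPM in Plin2-null fed livers. In Plin2+/+ mice the sum was 13.9 to 27.5 TPM in fasted livers and at least 47.2 TPM in every fed library. Most of this sum was Spp1, at 9.56 to 73.4 TPM, while Sox9 reached 4.45 TPM and every other marker at most 1.65 TPM. Of 6 tested, 1 fell in Plin2-null and 3 in Plin2+/+ livers, with median log2 fold changes of -0.08 and -0.73. Of the markers tested in the other lists, 2 of 8 sinusoidal endothelial genes fell and 2 rose in each genotype, 3 and 4 of 9 stellate genes fell and 1 and 0 rose in Plin2-null and Plin2+/+ livers, 0 and 2 of 6 neutrophil and monocyte genes fell and 2 rose in each, and 0 and 1 of 7 T and NK cell genes fell with none rising. Among the 10 hepatocyte markers, 1 rose and 2 fell in Plin2-null and 3 rose and 2 fell in Plin2+/+ livers. The part of any of these cell types in the fall of the chaperones was not tested.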

How the data were processed

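Polyadenylated liver RNA was made into libraries that keep the strand, per the labels' protocols. Deposited were the authors' raw counts per mouse Ensembl gene and TPM values; HISAT2 1.2.1 and featureCounts 1.4.6-p1 are named in the submitters' processing notes, which list the human build GRCh38 although the identifiers are mouse. Column names in the TPM table are shifted 1 cell to the left; count over TPM agreed to a relative SD of at most 1.04e-09 over 7109 genes, which ties each column to its library. Symbols matched 55141 of 55487 identifiers, and positions came from GENCODE M21 (GRCm38). A chi-square test over genes in 40 within-group pairs gave at least 45.3 per degree of freedom, far from sampling noise, and each library was 1 replicate.

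Counts were fitted in R 4.3.3 with edgeR 4.0.16 (filterByExpr, TMM, robust glmQLFit over all 20 libraries, 1 coefficient per group, glmQLFTest, Benjamini-Hochberg over all 16312 genes). The fit was also run on simulated counts, with changes in the Plin2-null fasted group alone and in far fewer genes than here. That run does not test the scaling where many genes change. A standard error is the size of the log2 fold change divided by √F. TPM gives levels. Alternatives were DESeq2 1.42.0, limma 3.58.1 (voom, and log2(TPM + 1) or log2(TPM + 0.1)), RLE or library-size scaling, other filters, the compared groups alone and leaving out single libraries; removing GC trends and leaving out Plin2+/+ fasted libraries 1 and 2 together were added after seeing the data. Promoters came from RefSeq. Plots used matplotlib 3.10.9 (Python 3.11.15). Named are the 10 members, up to 4 called genes with the smallest adjusted p per list plus other list members used as examples, and the 10 genes most like the members. Members and lists were chosen with earlier results of these data known. Other genes with the promoter element were named after their values were seen. Depth of 25506471 to 65579038 counts sets the counting precision.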

Additional observations from a re-analysis of the deposited data

Results flagged for a closer look

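With 40 groups of 5 libraries examined (10 genes in 4 groups), a value was marked where its gap to the nearest other library, over the range of the group, was above 0.71; chance marks about 1 in 20. Hsp90b1 in Plin2+/+ fasted replicate 4 was the lowest of its group at 323 TPM, against 383 to 400 TPM in the other libraries. Manf in Plin2-null fasted replicate 2 was the highest of its group at 11.0 TPM, against 7.99 to 8.71 TPM in the others.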

How the results depend on the processing

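No member's called change reversed under any alternative run. In Plin2-null mice between 6 and 8 of the 10 genes were called lower over all alternatives, and in Plin2+/+ mice between 7 and 9; leaving out single libraries gave 6 to 8 and 8 to 9. None was called for Plin2 loss or for the interaction in any setting. In Plin2-null mice Hspa5 passed under DESeq2, library size alone, the stricter filter and both TPM fits and without fed library 2, 3 or 4, and over all alternatives its adjusted p ran from 0.00985 to 0.222. Hsp90b1 ran from 0.00653 to 0.209 in Plin2-null and from 0.0066 to 0.142 in Plin2+/+ mice. Without Plin2+/+ fasted libraries 1 and 2, which had the steepest trend with GC content (-0.39 log2 per 10% GC each), Creld2 had an adjusted p of 0.0718 and Hsp90b1 of 0.0869 in Plin2+/+ mice, with fewer samples. Scaling by library size alone moved the all-gene median to -0.21 in Plin2-null and -0.16 in Plin2+/+ mice; relative to it the median of the 10 genes was -1.03 and -1.57. The split of all called genes moved with it, from 2942 higher and 2954 lower to 1376 and 4243 in Plin2-null mice, and from 3416 and 3541 to 1854 and 4173 in Plin2+/+ mice; limma on log2(TPM + 1) gave 972 higher and 4275 lower, and 1538 and 3294. The compared groups alone give no interaction. No paired analysis was possible because the number in each title belongs to 1 library and none is shared between groups.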

Other observations

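The spread of the chaperones among fed livers was shared by genes on the ER lists and by genes on none of them. Over the 10 fed libraries with group means removed, and chosen after these values were seen, the genes closest to the mean standardised level of the 10 chaperones included Rrp12 (r = 0.97) and Bysl (0.94), both of ribosome assembly, Polr3e (0.95), an RNA polymerase III subunit, Sec31a (0.95), an outer coat subunit of ER export vesicles, and Mlec (0.96), an ER lectin. Of the 10 closest genes only Mlec and Sec31a were on an ER list. Those not yet named were Ints5 (0.96), Nrbf2 (0.95), Txlna (0.95), Prrc1 (0.95) and Smg5 (0.94). The median over all genes considered was 0.03. Mlec fell on fasting in both genotypes (log2 -0.85 ± 0.19 SE in Plin2-null and -0.98 ± 0.19 in Plin2+/+ livers, edgeR adjusted p = 0.00139 and 0.000291). Rrp12 rose in Plin2-null livers (0.82 ± 0.31, adjusted p = 0.0464) and was not called in Plin2+/+ livers (0.25 ± 0.31, 0.545). Sec31a was called in neither (0.08 ± 0.11 and -0.20 ± 0.11). These correlations are descriptions over libraries that share scaling and depth.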
